A study of Rattus norvegicus with 19 samples.

Results

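The keratins that mark the layers of the mammary epithelium were compared between radiation-induced carcinomas and normal gland of the rat. The set holds 8 genes of 15168 symbols with a probe on the array: Krt7, Krt8, Krt18 and Krt19, taken as luminal, and Krt5, Krt14, Krt15 and Krt17, taken as basal. A probe was assigned to a keratin by the RefSeq accession in the array annotation, each of the 8 genes had 1 such probe, and all 8 passed the filter on dim probes. The tissues were 13 mammary carcinomas and 6 normal mammary glands from female F1 hybrid rats of the Sprague-Dawley and Copenhagen strains, 1 array per tissue. Per the labels, animals were either given 4 Gy of caesium-137 gamma rays to the whole body, at 0.5 Gy per minute, when 7 weeks old, or left untreated. The carcinomas are described as radiation-induced, and for the normal glands the labels used here do not say whether the animal had been irradiated, so the comparison is of tumour with gland. The age at sampling is not given, and nothing in the labels says whether any carcinoma and gland came from the same animal.

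Keratins are the intermediate filament proteins of epithelial cells. A filament is built from pairs of a type I and a type II keratin, and a type left without a partner is usually degraded. In the mammary gland the inner, luminal cells carry the type II keratin Krt8 with the type I keratins Krt18 and Krt19, and ductal cells also carry the type II keratin Krt7. The outer, basal or myoepithelial cells carry the type II keratin Krt5 with the type I keratins Krt14 and Krt17, while Krt15 is a type I keratin known from the basal layer of stratified epithelia and, in the mammary gland, from subsets of epithelial cells. The same 4 basal keratins are made by the epidermis and hair follicle.

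Upstream sequence of 3 of the 8 genes was in the RefSeq promoter table of build GRCr8, and 1 basal and 1 luminal example are shown to set their start regions side by side. Each line gives the 100 bases before the annotated start, read on the gene's own strand, Krt5 from chr7:134730570-134730669 on the minus strand and Krt18 from chr7:135036068-135036167 on the plus strand. Capitals mark 2 motifs searched on both strands, the GC box GGGCGG and the TATA-like string ATAAAA.
Krt5: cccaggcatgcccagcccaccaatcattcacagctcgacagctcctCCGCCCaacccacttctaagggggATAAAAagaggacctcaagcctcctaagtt
Krt18: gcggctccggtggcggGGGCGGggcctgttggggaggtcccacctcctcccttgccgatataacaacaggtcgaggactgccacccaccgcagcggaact
Krt5 held ATAAAA beginning 30 bases before its start and a GC box on the opposite strand, and Krt18 held a GC box on its own strand. Over the same window of all 33469 promoters in the table, 7.52% held ATAAAA and 21.6% held GGGCGG. A match is a description of the letters only.

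Values are log2 signal minus the array's 75th percentile, so 0 is that percentile of the array's spots and a step of 1 is a doubling. They compare samples for 1 gene and do not rank the keratins against each other, since each probe has its own response. The arrays were read for depth as signal over background: the 75th percentile was 485 to 1428 intensity units on carcinoma arrays and 295.5 to 673 on normal gland arrays, and 62.3 to 84.2% of spots were well above background on carcinoma arrays, against 65.5 to 77.2% on normal gland arrays. The probes for Krt7, Krt8, Krt14, Krt15, Krt18 and Krt19 were well above background on all 19 arrays, and those for Krt5 and Krt17 on all but carcinoma 7. The arrays lay on 3 slides, slide 1 with 4 carcinomas and 3 normal glands, slide 2 with 4 and 2, scanned on another day, and slide 3 with 5 and 1. Carcinomas 11, 12 and 13 and normal gland 6, all on slide 3, carry letter codes in their descriptions and all others number codes. The tissues were measured in bulk, where fewer cells of a type and less RNA per cell cannot be told apart.

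Of the basal keratins Krt15 was higher in carcinomas, 4.08-fold on average (95% interval 1.59 to 10.4), and the other 7 keratins did not pass the test. This is 1 of 8, where 22.9% of all 12803 genes tested passed in either direction and 9.7% passed as higher. Although Krt5 did not pass, it lay above every normal gland in 10 of 13 carcinomas, the same number as Krt15. In carcinoma 7 all 4 basal keratins were far below the rest. None of the 8 keratins separated the groups completely, and over all genes tested 2.47% did. The test was limma's moderated linear model with group as its term, adjusted by Benjamini-Hochberg over all genes, with a threshold of 0.05. The labels do not state that each sample came from a separate animal, so p-values measure only the spread between these samples.

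**Figure D1:**
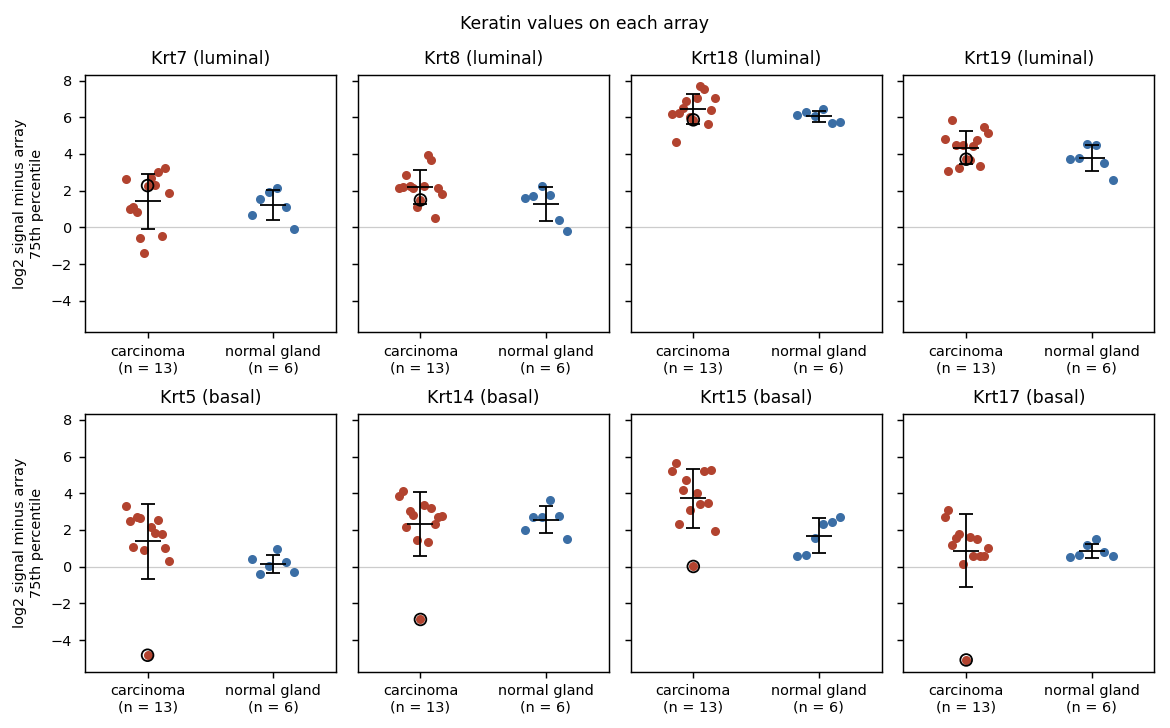
Values of the 8 keratins on each array, in log2 signal minus the array's 75th percentile, with carcinomas (red, n = 13) left of normal glands (blue, n = 6) in each panel. Bars give mean and SD, and carcinoma 7 is ringed. It lies at -4.83 for Krt5, -2.88 for Krt14, 0.01 for Krt15 and -5.09 for Krt17, while it stands inside the other carcinomas for the 4 luminal keratins.

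Krt15 had a lowest value of 0.01, a median of 4.01 and a highest value of 5.65 in carcinomas, against 0.57, 1.92 and 2.72 in normal glands. Carcinoma 2 was the highest, followed by carcinomas 12, 10 and 1, and carcinomas 3 and 13 lay inside the range of the glands. The change was 2.03 ± 0.65 (SE, n = 13 and 6, limma adjusted p = 0.0298). The glands themselves differed by slide: those on slide 1 were the 3 lowest and the single gland on slide 3 was the highest. Within slides the difference in means was 3.56 on slide 1, 0.31 on slide 2, which holds carcinoma 7, and 1.26 on slide 3. The call was lost without normal gland 1 (1.80, limma adjusted p = 0.0700), normal gland 2 (1.81, 0.0876) or normal gland 3 (2.00, 0.0672). It was also lost with array brightness as a covariate (0.70, limma adjusted p = 0.778). Brightness nearly follows the group: among carcinoma arrays only that of carcinoma 7 (75th percentile 485) was dimmer than the brightest normal gland array (673). A fit with that covariate therefore separates brightness from group poorly.

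Krt5, the type II basal keratin, had a lowest value of -4.83, a median of 1.82 and a highest value of 3.29 in carcinomas, against -0.40, 0.14 and 0.96 in normal glands. Carcinoma 1 was the highest, carcinomas 6 and 13 lay inside the range of the glands and carcinoma 7 far beneath it. The change was 1.21 ± 0.79 (limma adjusted p = 0.286) over all samples. Without carcinoma 7 it was 1.73 and passed (limma adjusted p = 0.00254). The difference in means was 2.35 on slide 1, -0.47 on slide 2, which holds carcinoma 7, and 1.86 on slide 3. With array brightness as a covariate, which nearly follows the group, the estimate turned to -1.64 (limma adjusted p = 0.519). What part carcinoma 7 plays in that fit was not tested.

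Krt14, the type I partner of Krt5, had a lowest value of -2.88, a median of 2.74 and a highest value of 4.14 in carcinomas, against 1.50, 2.71 and 3.62 in normal glands. The medians nearly coincided, only carcinomas 1 and 2 exceeded every gland, and carcinomas 6, 7 and 9 lay below every gland. The change was -0.23 ± 0.69 (limma adjusted p = 0.852), and it was 0.21 without carcinoma 7.

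Krt17, a type I keratin of basal cells that is also induced in injured skin, had a lowest value of -5.09, a median of 1.17 and a highest value of 3.11 in carcinomas, against 0.52, 0.71 and 1.49 in normal glands. The glands formed a tight band, 6 carcinomas lay above it and 5 inside it, and carcinomas 6 and 7 lay below it. The change was 0.01 ± 0.75 (limma adjusted p = 0.996), an average near 0 over carcinomas that reach far to both sides. Its sign turned when any of 12 single samples was left out, within a range of -0.18 to 0.50.

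Krt8, the type II keratin of luminal cells, had a lowest value of 0.48, a median of 2.15 and a highest value of 3.97 in carcinomas, against -0.19, 1.65 and 2.24 in normal glands. Carcinomas 9 and 10 were clearly the highest, 5 carcinomas exceeded every gland and none lay below all of them. The change was 0.94 ± 0.43, with a 95% interval of 0.05 to 1.82 before adjustment, and it did not pass (limma adjusted p = 0.120).

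Krt18, the type I partner of Krt8, had a lowest value of 4.65, a median of 6.42 and a highest value of 7.69 in carcinomas, against 5.69, 6.08 and 6.45 in normal glands. Carcinomas 9 and 10 were again the highest, carcinoma 2 stood alone at the low end, and carcinomas lay both above and below the narrow band of the glands. The change was 0.39 ± 0.33 (limma adjusted p = 0.429).

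Krt19, a small type I keratin of luminal and ductal cells, had a lowest value of 3.09, a median of 4.47 and a highest value of 5.87 in carcinomas, against 2.58, 3.74 and 4.52 in normal glands. Carcinoma 3 was the highest and carcinoma 2 the lowest, and 8 of 13 carcinomas lay inside the range of the glands. The change was 0.58 ± 0.38 (limma adjusted p = 0.291).

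Krt7, the type II keratin of ductal epithelium, had a lowest value of -1.40, a median of 1.87 and a highest value of 3.26 in carcinomas, against -0.08, 1.33 and 2.13 in normal glands. It was the most variable of the luminal keratins: 6 carcinomas lay above every gland, and carcinomas 5, 6 and 11 below every gland. The change was 0.21 ± 0.60 (limma adjusted p = 0.843), and its sign turned without normal gland 6 (-0.05).

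**Figure D2:**
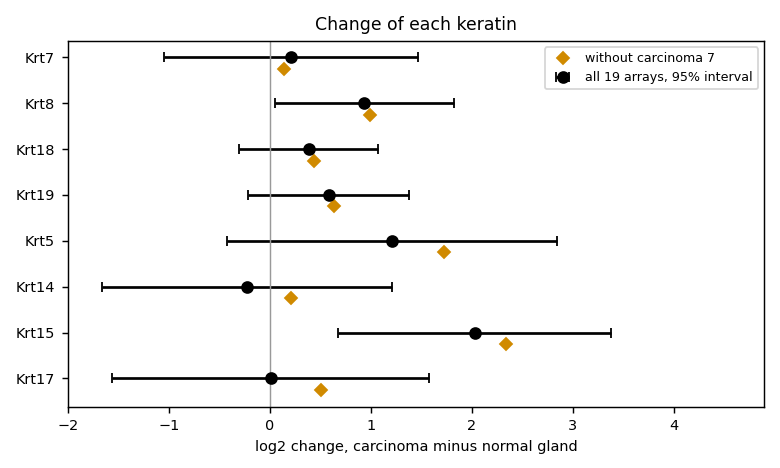
Log2 change of each keratin, carcinoma minus normal gland, with the 95% interval over all 19 arrays (black) and the estimate without carcinoma 7 (orange diamonds). The interval of Krt15 (0.67 to 3.38) and that of Krt8 (0.05 to 1.82) lie above 0 before adjustment for multiple tests, and leaving out carcinoma 7 moves Krt5 to 1.73, Krt14 to 0.21 and Krt17 to 0.50.

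The keratins were set beside lists of markers of the cells a tumour or a fatty gland can hold. Of 21 general epithelial genes 5 rose, where 9.7% of all genes tested did, and 0 fell. The largest were Grhl2 (1.43), Cdh1 (1.18), which encodes E-cadherin, and Ovol1 (1.16), while Epcam gave 0.41 (limma adjusted p = 0.146). The mean score of that list was -0.81 to 0.38 (median 0.18) in carcinomas and -0.79 to 0.21 (median -0.18) in normal glands. With it as a covariate the change of Krt15 was 2.62 (limma adjusted p = 0.0175, in a fit that called 7.89% of all genes higher) and that of Krt5 was 1.37 (limma adjusted p = 0.320). In the same fit Krt7 (-0.32), Krt18 (-0.094) and Krt19 (-0.094) turned below 0, while Krt8 stayed above 0. Of 18 fat cell genes 17 fell, where 13.2% of all genes tested did, with Adipoq, Rbp4 and Retn in front, and the score was -2.45 to -0.84 in carcinomas, against 3.33 to 4.27 in normal glands. Endothelial genes fell in 8 of 10, macrophage genes in 8 of 12 and fibroblast genes in 3 of 11, with 1 fibroblast gene higher. Only 1 fibroblast gene fell without normal gland 1, 3 or 5 or carcinoma 9, and 0 rose without normal gland 2, 5 or 6. Whether the fat, vessel and immune cells of the gland bear on the keratin values was not tested.

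Skin and hair follicle, which make the same basal keratins, were followed by their other markers. Of 12 skin genes 0 rose and 4 fell, where 13.2% of all genes tested fell. Dmkn (-4.37), Sbsn (-2.41) and Lce1m (-0.86) led, and scores were -0.85 to 0.65 in carcinomas and 0.27 to 0.79 in normal glands. Krt1, a keratin of differentiating epidermis, passed background on 4 carcinoma arrays and 0 normal gland arrays and was not tested, and Krt10 was not analysed here. Of 9 hair follicle genes 1 rose, the homeobox gene Msx2 (2.86), where 9.7% of all genes tested did, and 0 fell. Msx2 was well above background in 11 of 13 carcinomas and 1 of 6 normal glands. With normexp background correction its change was 0.65 and its call was lost. The call was also lost without normal gland 2, 3, 4, 5 or 6, within each slide and in number-coded samples alone. Slide or replicate number as a block, and the epithelial score or array brightness as a covariate, removed it too. So did leaving out the 3 arrays that the scanner software's quality grade marked for evaluation.

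The changes of the 4 basal keratins ran from -0.23 for Krt14 to 2.03 for Krt15. To compare partners, the difference between 2 keratins on the same array was taken, a measure chosen after the values had been seen and given without a test. Krt5 minus Krt14, the type II over the type I partner, had a lowest value of -2.41, a median of -0.65 and a highest value of 0.46 in carcinomas, against -3.10, -2.59 and -1.59 in normal glands. In 9 of 13 carcinomas it exceeded every gland and in none was it below all of them. The difference in means was 1.44 over all arrays, 1.59 on slide 1, 1.98 on slide 2 and 0.51 on slide 3, and 1.39 with normexp background correction and 1.32 with quantile normalization. Krt5 stood higher against Krt14 in most carcinomas than in any gland.

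Krt15 minus Krt14, both type I, had a lowest value of -0.78, a median of 1.51 and a highest value of 2.89 in carcinomas, against -2.08, -1.25 and 1.22 in normal glands. Carcinomas exceeded every gland in 8 of 13, and the highest gland was the letter-coded gland 6. The difference in means was 2.79 on slide 1, 2.75 on slide 2 and -0.10 on slide 3, so it was not seen on the slide that holds that gland. Krt5 minus Krt17 lay above every gland in 10 of 13 carcinomas, with differences in means of 0.94, 1.37 and 1.36 on slides 1, 2 and 3. Krt17 minus Krt14 overlapped: its median was -1.51 in carcinomas and -1.78 in normal glands, and 11 of 13 carcinomas lay inside the range of the glands. Relative to Krt14, Krt5 lay above every gland in 9 carcinomas, Krt15 in 8 and Krt17 in 1.

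Among the luminal keratins, Krt8 minus Krt18 had a median of -4.27 (range -5.22 to -2.44) in carcinomas and of -4.62 (range -5.92 to -3.82) in normal glands, and 10 of 13 carcinomas lay inside the range of the glands. Krt7 minus Krt19 spread in both directions, with 6 carcinomas above and 6 below every gland. Its range was -5.88 to -0.98 in carcinomas, against -3.06 to -2.20 in normal glands. With quantile normalization 3 carcinomas lay above and 6 below every gland, and the difference in means of Krt8 minus Krt18 was 0.06, against 0.55 on the main scale.

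**Figure D3:**
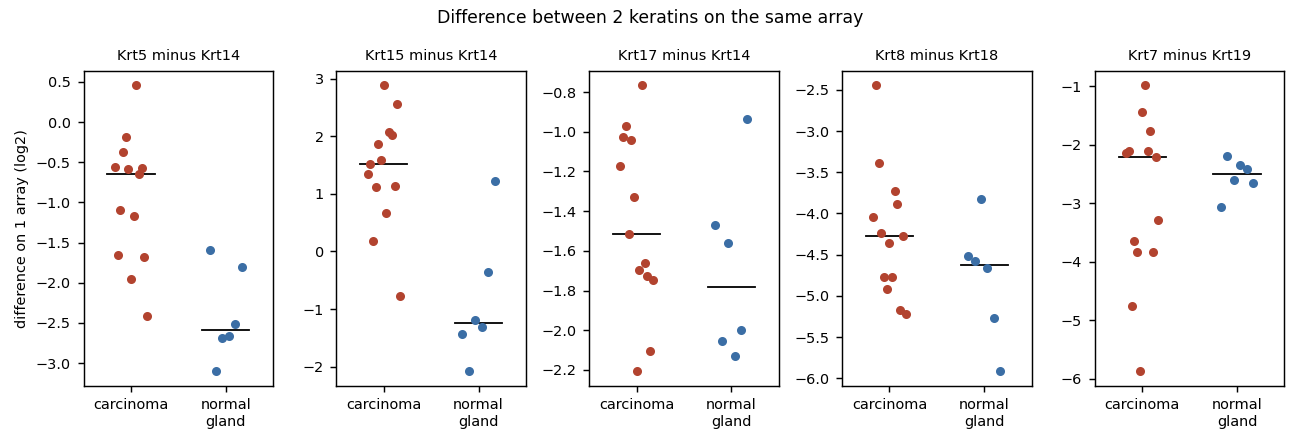
Difference between 2 keratins on the same array, in log2 units, with carcinomas (red) left of normal glands (blue) in each panel, each panel on its own scale, and bars at the group medians. Krt5 minus Krt14 and Krt15 minus Krt14 lie higher in most carcinomas, with medians of -0.65 and 1.51, against -2.59 and -1.25 in normal glands, while Krt17 minus Krt14 overlaps and Krt7 minus Krt19 spreads to both sides.

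To place each sample between the layers, the keratins were centred on their means over all 19 arrays, and the mean of the 4 basal keratins was subtracted from that of the 4 luminal ones. This index had a lowest value of -2.72, a median of -0.44 and a highest value of 4.93 in carcinomas, against -0.71, 0.28 and 0.83 in normal glands. Carcinomas lay on both sides: 3 were above every gland, 5 were below and 5 inside the range. The group means differed by -0.23, which is small beside the SD of 1.88 among carcinomas and 0.65 among normal glands. Carcinoma 7 was the luminal extreme, followed by carcinomas 9 (1.20) and 13 (0.87). Carcinoma 2 was the basal extreme, followed by carcinomas 5 (-1.66), 1 (-1.41), 11 (-1.39) and 4 (-0.96).

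Low values of the index did not always mean high basal keratins. Carcinoma 11 had an average of 0.21 over the basal keratins and the lowest luminal average among carcinomas, -1.18, whereas carcinoma 1 had 1.92 and 0.51. Carcinoma 10 was high in both sets, with 1.27 over the basal and 1.30 over the luminal keratins, and so had an index of 0.03. Carcinoma 9 had the second highest luminal average, 1.17, with a basal average of -0.03. In normal glands the luminal average ran from -1.43 in gland 6 to 0.28 in gland 4, and the basal average from -0.96 in gland 1 to 0.26 in gland 4.

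**Figure D4:**
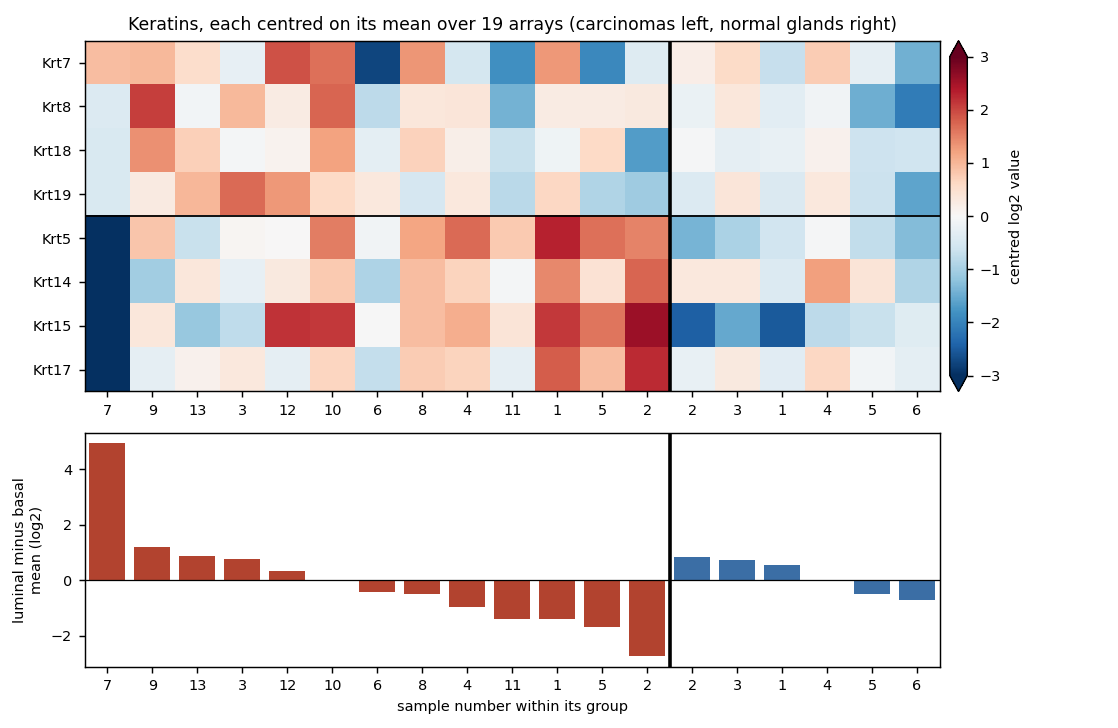
Upper panel: the 8 keratins (luminal above basal), each centred on its mean over 19 arrays in log2 units, in carcinomas (left of the line) and normal glands (right), ordered within each group by the luminal minus basal index, with colours capped at 3 in either direction. Lower panel: the index itself, 4.93 in carcinoma 7, between -2.72 and 1.20 in the other carcinomas and between -0.71 and 0.83 in normal glands.

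Carcinoma 7 combined very low basal keratins with luminal keratins near those of the gland. It lay 5.16 below the next lowest carcinoma in Krt5, 5.23 below in Krt17, 4.24 below in Krt14 and 1.95 below in Krt15. Its luminal values were 2.27 for Krt7, 1.49 for Krt8, 5.86 for Krt18 and 3.71 for Krt19, all but Krt7 inside the range of the normal glands. Krt5 and Krt17 were not well above background there, so those 2 gaps are approximate. A gap of at least 4 below the next carcinoma was found in 17 of 12714 genes with a value on every array, or 0.134%. They include Krt5, Krt14 and Krt17, and also Lgals7, an epithelial galectin on the skin list, Perp, a desmosome gene, Upk1b, a uroplakin gene, and the integrin gene Itgb6. Cabcoco1 (a gap of 5.45), Rasd2 (5.35) and Col9a2 (5.05), which are on none of the lists used here, are among them too. All but the keratins were named after their values were seen.

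Other genes of the basal layer were low in the same tumour, though not all. Of 14 myoepithelial genes tested 9 had their lowest carcinoma value in carcinoma 7, where 10.67% of all genes did, and the list's score was -2.13 there, against -0.13 in the next lowest carcinoma. Smooth muscle actin, Acta2, was at -1.55 in carcinoma 7, with a median of 2.82 over all carcinomas and a range of 1.53 to 2.50 in normal glands. The smooth muscle myosin gene Myh11 was at -2.17, the lowest of any carcinoma. On the same list the laminin gene Lamb3 was not low there. It was at 1.20, the carcinoma median, and above the highest normal gland (0.10). Oxtr (-5.17) also lay inside the range of the other carcinomas. The skin score was also the lowest of the carcinomas there, -0.85, with 3 of 12 skin genes lowest and 2 highest. The general epithelial score was 0.21 and Epcam 4.06, both within the range of the other carcinomas. Of 10 milk protein and milk fat genes 9 were highest in carcinoma 7, and their score was 3.64, against 2.01 to 3.15 in normal glands. Of 18 fat cell genes 7 were also highest there, and their score of -0.84 was the highest of the carcinomas. The share of all genes highest there was not computed. In all carcinomas together 3 of the 10 milk genes fell, where 13.2% of all genes tested did, and 0 rose. Glycam1, Wap and Csn1s2b led, while 6 fell without carcinoma 7 and 1 without normal gland 2. The array of carcinoma 7 was also the dimmest of the carcinoma arrays, with a 75th percentile of 485 and 62.3% of spots well above background. What part the brightness plays in its values was not tested.

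Carcinoma 2 was the opposite case. It had the highest Krt14, Krt15 and Krt17 of all samples and the lowest Krt18 and Krt19 of all carcinomas, with Krt8 (2.21) and Krt7 (0.98) near the middle. Its general epithelial score was the lowest of the carcinomas (-0.81) and its fibroblast score the highest (1.36), and what part they play was not tested. Its myoepithelial score was -0.13, second lowest, and its score over 11 keratin anchorage genes 0.80, second highest. The members of the myoepithelial list went both ways: Lamb3 (3.49) and Cdh3 (2.41) were the highest of all carcinomas, and the contractile genes Acta2 (0.77), Myh11 (-1.18) and Mylk (2.37) the second lowest.

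The SD was larger in carcinomas than in normal glands for 7 of the 8 keratins and the same to 2 decimals for Krt8. The SD was 2.05 in carcinomas and 0.50 in normal glands for Krt5, 1.98 and 0.38 for Krt17, 1.76 and 0.73 for Krt14, and 1.61 and 0.94 for Krt15. Without carcinoma 7 the carcinoma SD was 0.90 for Krt5, 0.88 for Krt17, 0.85 for Krt14 and 1.21 for Krt15, so much of the width rests on that tumour. For the luminal keratins it was 1.50 in carcinomas and 0.83 in normal glands for Krt7, 0.82 and 0.30 for Krt18, 0.88 and 0.72 for Krt19, and 0.93 in both groups for Krt8. Over all genes with a value on every array the median SD was 0.600 in carcinomas and 0.524 in normal glands, and 61.6% had the larger SD in carcinomas. A limma test on absolute deviations from the group median called 0 of the 8 keratins (lowest adjusted p = 0.633, for Krt18) and 0 of 12714 genes as wider in carcinomas, with 488 wider and 568 narrower at an unadjusted p under 0.05, and it called 4 genes (0.0315%) as narrower, none of them a keratin of the set. On simulated data that test recovered 0% of 200 genes whose SD was 8 times larger in carcinomas, so the absence of a call for a keratin says nothing about its spread.

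Keratins of the same layer were next compared across the 13 carcinomas. All 6 pairs of basal keratins were positively correlated and passed, with a Pearson r of 0.81 to 0.98, and none of the 6 luminal and 16 mixed pairs did. The family held 42 pairs, these 28 and 14 with other genes, and p-values came from 100000 permutations, 2-sided, adjusted by Benjamini-Hochberg over the 42. Arrays share their scaling, and 1 tumour can set such an r, so each pair was repeated without carcinoma 7 and without the 2 carcinomas farthest from the median of the first gene.

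Krt14 and Krt17, both type I, gave the highest r, 0.98 (Spearman rho = 0.90, permutation p = 1e-05, the smallest these permutations can give, adjusted p = 0.000420). It was 0.85 without the 2 farthest carcinomas, 2 and 7 (permutation adjusted p = 0.0307), and 0.89 without carcinoma 7 (permutation adjusted p = 0.0105). No other basal pair passed in either repeat. Krt5 and Krt14, the textbook partners, had r = 0.92 and rho = 0.73 (permutation p = 0.00135, adjusted p = 0.00945), and r = 0.61 without carcinoma 7. Krt5 and Krt17 had r = 0.95 and rho = 0.82 (permutation p = 0.00022, adjusted p = 0.00462), and r = 0.72 without it. By rank, Krt5 with Krt17 and Krt14 with Krt17 passed.

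The pairs with Krt15 behaved in the same way. Its r was 0.85 with Krt5, 0.83 with Krt14 and 0.81 with Krt17 (permutation adjusted p = 0.00560, 0.00809 and 0.00945), and 0.72, 0.66 and 0.60 without carcinoma 7. Over the 9 carcinomas of the first scan day, which leave out slide 2, the 6 basal pairs gave r between 0.54 and 0.89. Without carcinoma 7 the call was lost for 5 of the 6 basal pairs, and r remained positive in all 6.

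Of the luminal pairs Krt8 and Krt18 were the most alike, with r = 0.61 and rho = 0.58 (permutation p = 0.0265, adjusted p = 0.111), and r = 0.41 without carcinomas 9 and 11. Krt7 and Krt8, both type II, had r = 0.55 (permutation adjusted p = 0.188). All 6 luminal pairs were positive, from 0.35 to 0.61. The 16 pairs of a luminal with a basal keratin ran from -0.11 to 0.30, and from -0.48 to 0.35 without carcinoma 7, the lowest there being Krt19 with Krt5 (permutation adjusted p = 0.388), and none of the 16 passed in either run.

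**Figure D5:**
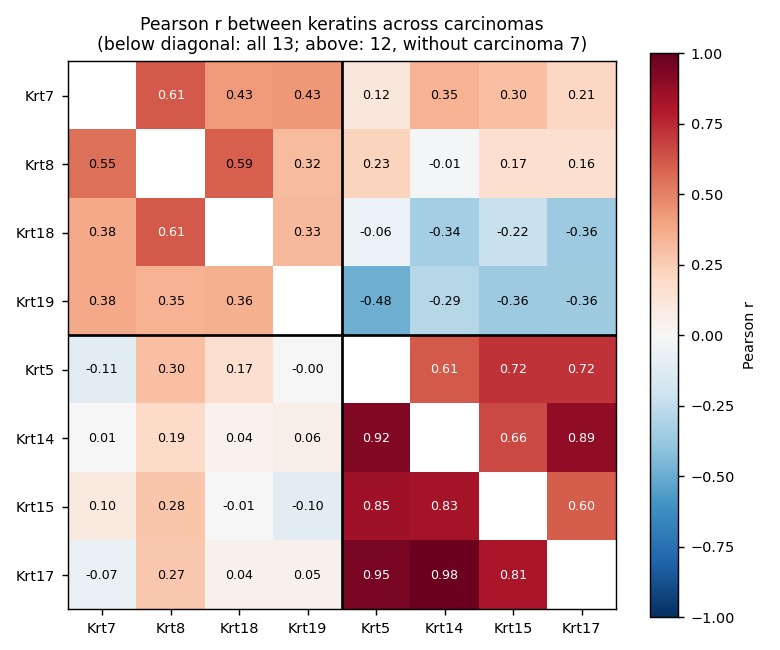
Pearson r for the 28 pairs of keratins across carcinomas, with all 13 carcinomas below the diagonal and 12, without carcinoma 7, above it. The lines separate luminal from basal keratins. The basal block runs from 0.81 to 0.98 with all carcinomas and from 0.60 to 0.89 without carcinoma 7, and mixed pairs lie between -0.48 and 0.35 in either triangle.

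The other 14 pairs set keratins beside regulators and partners chosen from their known biology. Krt14 with the basal cadherin Cdh3 passed (r = 0.76, rho = 0.61, permutation adjusted p = 0.0260) with r = 0.26 without carcinomas 2 and 7, so it rests on them. Krt18 with the luminal transcription factor Gata3 passed narrowly (r = 0.69, rho = 0.54, permutation adjusted p = 0.0467), with r = 0.35 without carcinomas 2 and 9. Krt17 with the laminin gene Lamb3 did not pass over all carcinomas (r = 0.33, rho = 0.57) and gave 0.80 without carcinoma 7 (permutation adjusted p = 0.0288). Acta2 gave r of 0.81 with Krt5, 0.68 with Krt14, 0.53 with Krt15 and 0.69 with Krt17, none of which passed. Without carcinoma 7 these were 0.26, -0.21, -0.12 and -0.24. Epcam gave r between -0.01 and 0.29 with the 4 luminal keratins. Trp63, which encodes the basal regulator p63, was not analysed here.

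For each keratin the genes most like it across the 13 carcinomas were named by Pearson r over 12681 other genes, as a description. The basal keratins shared some of these: Perp led for both Krt14 (0.96) and Krt17 (0.99), Itgb6 was among the first 3 for Krt5 (0.95) and Krt17 (0.94), and Lrrc73 among those for Krt15 (0.90) and Krt17 (0.93). Krt5 was led by Upk1b (0.96) and Tenm2 (0.96), Krt14 had Efnb1 (0.94) and Tpm2 (0.94), and Krt15 had Sccpdh (0.92) and Tmem241 (0.91). Perp, Itgb6 and Upk1b lay 4.61, 4.52 and 4.65 below the next carcinoma in the tumour with the lowest basal keratins, which can set such an r. In the order given, Spearman rho was 0.85 and 0.93 for Perp, 0.74 and 0.63 for Itgb6, and 0.84 and 0.86 for Lrrc73. For Upk1b with Krt5 it was 0.77. How far these r rest on that tumour was not tested. The luminal keratins shared none of their first 3 genes. Krt8 had Gng3 (0.84) and the connexin gene Gjb5 (0.82), and Krt18 had the syntaxin gene Stx4 (0.91), Nipsnap3b (0.86) and Lefty1 (0.84). Krt19 had Gcnt3 (0.86), Wfdc21 (0.86) and Tspan13 (0.82), and Krt7 had the annexin gene Anxa1 (0.84) and Tgfbr2 (0.80).

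Genes that anchor keratin filaments to cell junctions were examined next. Of 11 tested 5 rose, where 9.7% of all genes tested did, and 0 fell. The median change was 1.03, against 0.01 over all genes tested. Envoplakin, Evpl (2.19 ± 0.39), the desmosomal cadherin Dsc2 (1.70 ± 0.33) and periplakin, Ppl (1.29 ± 0.35), were the largest, and Jup (plakoglobin) and Plec (plectin) also rose (limma adjusted p of 0.000615 to 0.0120). Evpl gave 1.82, Dsc2 0.83 and Ppl 0.40 with normexp background correction. In carcinoma 7 the score of this list was -0.59, the lowest of the carcinomas, and the carcinoma median was 0.55, against -0.69 in normal glands.

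Of 13 regulators and binding partners of keratins 5 rose and 1 fell, where 9.7% and 13.2% of all genes tested did. Gata3 (1.60 ± 0.47), the luminal factor, Grhl2 (1.43 ± 0.22), an epithelial factor, and Klf5 (1.32 ± 0.39) rose the most, and Klf4 (-1.50 ± 0.37), known from differentiating epidermis, fell (limma adjusted p of 0.000188 to 0.0199). The number that rose was 1 without normal gland 2, 2 without normal gland 3 and 1 with the epithelial score as a covariate. Of 14 myoepithelial genes 1 rose, Lamb3 (1.35), and 1 fell, Igfbp5 (-1.59), together 14.3%, where 22.9% of all genes tested passed. Acta2 gave 0.35 (limma adjusted p = 0.698). Without carcinoma 7, 3 of these 14 rose, without carcinoma 3 or normal gland 6, 2 rose, and without normal gland 1, 5 or 6, 0 fell. The median change of that list was 0.35.

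On a list of other keratins 4 of 23 tested passed, a share of 17.4%, where 22.9% of all genes tested did. Krt6c (1.23, limma adjusted p = 0.0791) and Krt88 (0.14, 0.859), keratins outside that list, were tested and did not pass. Krt81, Krt87 and Krt33b, hair keratins in their best known setting, fell by 1.02, 1.20 and 1.50 on the log2 scale, and Krt81 lay below every normal gland in all 13 carcinomas, as 1.93% of all genes tested did. These were dim, with carcinoma means of -3.63, -4.72 and -3.72. With array brightness as a covariate their changes were -0.63, -0.99 and -0.24, and what part brightness plays in the separation of Krt81 was not tested. Krt24 gave 1.10 (limma adjusted p = 0.0302), but 12 of 13 carcinomas and 1 of 6 normal glands showed it well above background, and its change was -0.56 with normexp background correction. Its call was lost without normal gland 2, 3, 4 or 5 and with the epithelial score as a covariate, and with array brightness as a covariate none of the 4 passed. That correction moved the median change of all genes tested to -0.37 and called 20 of the 23 other keratins lower, where it called 41.2% of all genes lower. The 8 luminal and basal keratins kept the sign of their change under it. Of 12 other intermediate filament genes 0 rose and 2 fell, where 13.2% of all genes tested fell. The 2 were vimentin, Vim (-1.40 ± 0.27), the filament of mesenchymal cells, and desmin, Des (-2.42 ± 0.73), that of muscle. Without normal gland 3, 1 fell.

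Each member was also checked for technical spread on the array. Krt8 was printed as 10 spots per array and the others as 2, and the median SD between spots of a probe was 0.02 to 0.05 on the log2 scale, below the SD between carcinomas of each keratin. Keratins are a family of related sequences, and whether a probe also binds another family member was not tested. The letter-coded carcinomas 11, 12 and 13 lay inside the range of the number-coded ones in all 8 keratins, except that carcinoma 11 was the lowest in Krt8 and carcinoma 12 the highest in Krt7. In Krt5 (0.33) and Krt15 (1.96) only carcinoma 7 lay below carcinoma 13. Letter-coded and number-coded medians were 1.01 and 2.32 for Krt5, 2.69 and 2.94 for Krt14, 3.46 and 4.09 for Krt15, and 0.60 and 1.53 for Krt17. The luminal medians differed in both directions.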

How the data were processed

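RNA of 13 mammary carcinomas and 6 normal glands was labelled with Cy3 and hybridised to 1-colour Agilent arrays, and Agilent Feature Extraction 10.7.3.1 read the images, per the submitters' processing notes. Per the file headers, the deposited intensity of each spot is background-subtracted. The authors' deposited value table is on the log2 scale. It differs by a constant of 0.43 to 0.54 per array from the values used here, which were scaled per array as described below. How the deposited table was scaled is not given in the sources used here, and it served as an alternative.

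Control spots were dropped, leaving 58717 spots and 30367 probes, and 403 to 1069 spots per array flagged as uneven or outlying were set to missing, and no spot reached saturation. From each log2 intensity the 75th percentile of its array was subtracted, and the spots of a probe were averaged. A probe was kept if well above background on at least 6 arrays, where on each at least 0.5 of its spots were, and the brightest probe stood for a gene. RefSeq accessions gave a symbol to 18005 probes. Their assemblies differ, so no positions were taken from the array or the gene table. Tests used limma 3.58.1 in R 4.3.3 with an intensity trend, and correlations SciPy and NumPy permutations, or every order for the 9 carcinomas of the first scan day. On simulated data for carcinoma against normal gland, limma recovered 44% of genes changed by 1 and 80% of those changed by 2 on the log2 scale. The number of arrays limits the precision.

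The keratins, the gene lists, the pairs and the tests were chosen with earlier results of these data known. Always named were the 8 keratins, Epcam, Cdh1, Trp63, Acta2 and Vim; of other keratins up to 8 past the threshold; of each other list the 3 largest changes in its more frequent direction and the largest in the other; and for each keratin the 3 most alike genes, of which 2 are not reported here. Names beyond this rule were chosen after their values were seen. Alternatives covered background correction (normexp with offset 50 on median intensities, since mean intensities were not used here), normalization, the probe filter, slide, scan day, code series, brightness, epithelial content, replicate number and each sample left out. Samples with the same replicate number mostly did not deviate together: over 6 pairs the correlation was -0.11 to 0.24, and it exceeded 0.1 in 1 pair, that of replicate 1.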

Additional observations from a re-analysis of the deposited data

How the results depend on the processing

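Most values kept their direction and their side of the threshold. Leaving out each sample in turn gave a log2 change of 1.80 to 2.34 for Krt15, 1.05 to 1.73 for Krt5, -0.44 to 0.21 for Krt14, -0.18 to 0.50 for Krt17, 0.65 to 1.13 for Krt8, 0.28 to 0.54 for Krt18, 0.35 to 0.74 for Krt19 and -0.049 to 0.44 for Krt7, and 664 to 1440 genes higher and 1087 to 1830 lower, with 664 and 1087 when normal gland 3 was left out and 694 and 1119 when gland 2 was. Over the same runs the index difference was -0.64 to -0.01. Within slide 1, Krt7 gave -0.34, Krt18 -0.15, Krt14 0.77 and Krt5 2.35 (passed, limma adjusted p = 0.0380), with 153 genes higher and 533 lower. Within slide 2, Krt7 gave -0.61, Krt5 -0.47, Krt15 0.31 and Krt17 -1.83, with 45 and 267, and within slide 3 Krt14 gave 1.36 and Krt15 1.26, with 0 and 31, each on fewer samples. With brightness as a covariate, which nearly follows the group, Krt5 gave -1.64, Krt15 0.70 and Krt17 -2.85, with 11 genes higher and 172 lower. With the epithelial score, Krt7 gave -0.32, Krt18 -0.094 and Krt19 -0.094. Scan day as a block gave -0.028 for Krt17, and number-coded samples alone gave -0.0090 for Krt17 and -0.087 for Krt7. Normexp gave 5276 genes lower, among them 11 of 12 skin, 5 of 9 hair follicle, 6 of 12 other filament and 7 of 10 milk genes; the cause of these changes was not tested. With the replicate number as a block, which only a shared number supports, Krt5 (2.01) and Krt8 (0.86) passed and Krt14 (0.36) and Krt7 (-0.62) turned. It changed no other call among the 8 keratins, and Krt24 and Msx2 lost their calls. The mean deviation of Krt8 in carcinomas minus normal glands was 0.034 with quantile normalization, 0.14 with slide means removed and -0.21 to 0.19 with single samples left out, and that of Krt14 was -0.11 with slide means removed. Of 42 pairs 8 passed, 1 without the 2 farthest carcinomas, 2 on the first scan day and 2 without carcinoma 7, the last added after seeing the data. The runs without the 3 arrays that the scanner software's quality grade marked for evaluation were also added after seeing the data. Those runs left the calls of the 8 keratins as they were, while Krt24 and Msx2 lost their calls.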
